A study of Mus musculus with 4 samples.

Results

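Cell cycle genes were followed across 4 spatial transcriptomics sections of the mouse heart. The group holds 42 of the 21885 genes in the count files, picked by symbol with earlier results of these data known: 14 genes of DNA synthesis (S phase), 26 genes of mitosis and 2 regulators of the G1 phase, Cdkn1a and Ccnd1. Each symbol was found in all 4 sections. The arrays were of the Visium type, on which RNA of a frozen section is caught by spots with a position barcode, and each captured molecule is counted once as a unique molecular identifier (UMI). A spot is a small region of tissue that can hold several cells of different types.

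The hearts came from Collagen1a1-GFP+ mice aged 8 to 12 weeks, which carry a green fluorescent reporter driven by a collagen gene. 1 control heart had no infarct, 1 heart was taken 3 days after myocardial infarction (3 dpi) and 2 at 5 dpi, and infarction was made by tying off the left anterior descending coronary artery. 1 section of each heart was placed on the array, so the hearts are the replicates, there is no second control or 3 dpi heart, and p-values measure the spread between these sections. The section of the 5 dpi heart labelled female is called 5 dpi-F and that of the heart labelled male 5 dpi-M. These are names only, since Y-linked genes had 704 UMIs in 5 dpi-F and 1 UMI in 5 dpi-M, against 0 in the control and 0 at 3 dpi, both labelled female.

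Dividing cells copy their DNA in S phase and separate it in mitosis. Genes of S phase are transcribed as cells leave G1, under E2F factors that are released once cyclin-dependent kinases phosphorylate the retinoblastoma protein. Genes of mitosis are transcribed later, in G2 and M, through CCAAT boxes and the cell cycle genes homology region (CHR). Cyclin D1, encoded by Ccnd1, activates the G1 kinases, and p21, encoded by Cdkn1a, inhibits cyclin-dependent kinases and is a target of p53. In the adult heart muscle cells rarely divide, while immune cells, fibroblasts and endothelial cells can multiply after an infarct.

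Spots under tissue numbered 1146 to 1741 per section after filtering, with 6250183 to 11010109 UMIs in a section and medians of 4968 to 6935 UMIs per spot. Mitochondrially encoded genes took 40.1% of the UMIs in the control, 21.4% at 3 dpi, 13.3% in 5 dpi-F and 14.3% in 5 dpi-M. Levels are therefore given as CPM, the UMIs of a gene scaled to a common total of 1000000 non-mitochondrial UMIs of a section or of a class of spots. All intervals cover counting error only.

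The S-phase and the mitotic genes were at higher levels in each infarcted section than in the control. The 14 S-phase genes together had 95.1 CPM in the control, with a 95% Poisson interval of 85.5 to 106, and 600 CPM at 3 dpi, 563 CPM in 5 dpi-F and 498 CPM in 5 dpi-M. The 26 mitotic genes together had 93.3 CPM in the control, against 902 CPM at 3 dpi, 840 CPM in 5 dpi-F and 768 CPM in 5 dpi-M. Mitotic UMIs were 0.98 per S-phase UMI in the control (95% interval 0.843 to 1.14) and 1.5, 1.49 and 1.54 per S-phase UMI in the infarcted sections. On the log2 scale the infarcted sections stood above the control by 2.54 ± 0.14 for S-phase and by 3.16 ± 0.12 for mitotic genes (SD, n = 3 infarcted sections). The control is a single heart, so this difference has no test. In such bulk regions more dividing cells and more RNA per dividing cell cannot be told apart.

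Gene by gene, all 14 S-phase genes and 25 of the 26 mitotic genes were at least 2-fold above the control in the infarcted section nearest to it, but neither G1 regulator was. Of all 10969 genes with 5 CPM or more in a section, 25.2% met this mark. The median fold over the control was 9.32, 8.32 and 7.69 for S-phase genes and 19.4, 17.2 and 14 for mitotic genes at 3 dpi, in 5 dpi-F and in 5 dpi-M, against 1.44, 1.52 and 1.34 over all genes tested. In the control 10 S-phase and 23 mitotic genes lay under 5 CPM, so their folds rest on few molecules and they met the mark of 5 CPM only through infarcted sections, as did 1899 of all genes tested. Between the times no member was 2-fold higher or lower at 5 dpi than at 3 dpi in the nearer 5 dpi section. Among all genes 1.22% were higher and 0.483% lower by that mark.

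The S-phase genes with the highest mean levels illustrate the pattern, with values given in the order control, 3 dpi, 5 dpi-F and 5 dpi-M. Pcna, the sliding clamp of the replication fork, had 37.7, 117, 104 and 96.5 CPM. Rrm1, a subunit of ribonucleotide reductase, had 12.6, 72.6, 74.9 and 58.1 CPM. Tyms, thymidylate synthase, had 4.54, 46.1, 46.1 and 46.4 CPM. In each of these genes the 3 infarcted sections lay close together and apart from the control. Of the helicase subunits, Mcm6 had 6.68, 63.9, 61.3 and 53.4 CPM. Mcm5 had 4.01, 53.5, 44.4 and 37.5 CPM. Mcm7 had 8.55, 43.1, 43.3 and 39.6 CPM. All 3 were lowest in the control and next lowest in 5 dpi-M.

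Among the mitotic genes, Mki67, whose protein coats mitotic chromosomes and is the common marker of cycling cells, had 3.21, 81.4, 77.4 and 68.3 CPM in the same order. Cdk1, the kinase that drives entry into mitosis, had 2.67, 73.2, 69.6 and 69.5 CPM. Birc5, part of the chromosomal passenger complex, had 2.94, 70.3, 64.2 and 61.9 CPM. The control was far below the infarcted sections in all 3. Ube2c, an enzyme that feeds ubiquitin to the anaphase-promoting complex, had 5.34, 82.3, 86.8 and 75 CPM. Top2a, which untangles DNA before chromosomes separate, had 4.01, 54.3, 48.5 and 45.3 CPM. Cenpa, the histone variant of centromeres, had 37.9, 85, 78.5 and 88.9 CPM. Cenpa thus had the highest control level of the mitotic genes, and Cenpf, a kinetochore protein, was the exception, with 15.2 CPM in the control and 12.8, 12.8 and 13.8 CPM in the infarcted sections.

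Of the G1 regulators, Ccnd1 had 43.3, 110, 65.7 and 61 CPM in the same order. Cdkn1a had 24.9, 50.9, 56.4 and 43.1 CPM. Both were lowest in the control, and Ccnd1 was highest at 3 dpi.

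**Figure D1:**
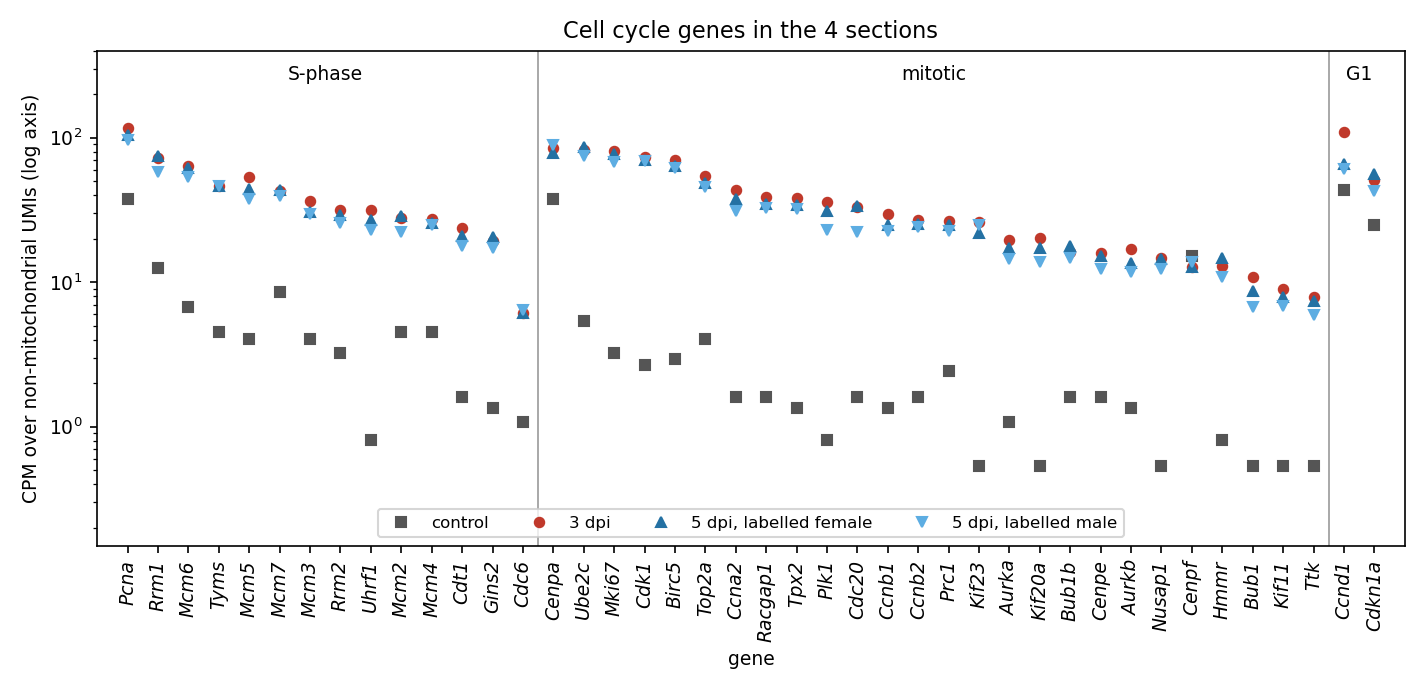
CPM of each cell cycle gene (log axis) in the control (squares), at 3 dpi (circles) and in 5 dpi-F and 5 dpi-M (up and down triangles), with genes grouped by role and ordered by mean level. The infarcted sections lie above the control for all genes but Cenpf. They sit close together in most genes, and Ccnd1 is the gene in which 3 dpi stands clearly above both 5 dpi sections.

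Since most members were higher together after infarction, the sequence before their transcription starts was examined for the elements named above. RefSeq promoter windows (assembly GRCm38.p6) were found for 35 members, and the first 250 bases of each, which precede the start, were searched on both strands. No window was given for Ccna2, Aurkb, Kif20a, Tpx2, Mcm4, Gins2 and Ccnd1. A CHR-type element, TTTGAA or else TTCGAA, was present in 9 of 22 mitotic genes (40.9%) and a CCAAT box in 20 of them (90.9%). Over all 27025 genes in the promoter set these shares were 19.6% and 37.5%. All 9 mitotic genes with a CHR-type element also held a CCAAT box, a pair found in 7% of all genes. An E2F-type element, TTTCGCGC or TTTGGCGC or GGCGGGAA, was present in 4 of 12 S-phase genes (33.3%), in 1 of 22 mitotic genes (4.55%) and in 2.85% of all genes. CCAAT boxes stood before 9 of the 12 S-phase genes (75%) and CHR-type elements before 2 (16.7%). A match is a description of these letters and not a bound site, and the TTTCGCGC and TTTGGCGC forms can overlap on opposite strands.

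The stretches before the starts of the 3 mitotic genes with the highest mean CPM among those with both elements are shown to let the reader see them, with CHR-type elements and CCAAT boxes of either strand in capitals. They lie at chr2:164769701-164769928 (plus strand, Ube2c), chr7:135716451-135716567 (minus strand, Mki67) and chr10:69352913-69353120 (minus strand, Cdk1), and none of the bases lies inside the annotated gene. For Mki67 the last 71 of the searched bases lie inside it and are not printed, so its stretch ends before the start used in the search.
Ube2c: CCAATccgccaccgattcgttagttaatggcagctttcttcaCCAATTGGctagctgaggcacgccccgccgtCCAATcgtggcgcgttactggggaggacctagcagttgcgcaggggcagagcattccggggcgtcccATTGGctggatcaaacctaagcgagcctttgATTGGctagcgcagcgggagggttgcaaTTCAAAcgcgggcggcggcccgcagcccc
Mki67: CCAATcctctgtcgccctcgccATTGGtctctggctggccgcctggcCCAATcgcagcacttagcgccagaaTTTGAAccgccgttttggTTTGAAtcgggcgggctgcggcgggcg
Cdk1: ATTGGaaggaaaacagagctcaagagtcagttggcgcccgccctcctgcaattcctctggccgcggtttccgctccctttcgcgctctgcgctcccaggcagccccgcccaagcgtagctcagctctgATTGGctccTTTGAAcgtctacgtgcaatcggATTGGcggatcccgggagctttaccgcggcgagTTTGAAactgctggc

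The same is shown for the 3 S-phase genes with the highest mean CPM among those with an E2F-type element, which is in capitals. They lie at chr7:102441545-102441694 (plus strand, Rrm1), chr1:128359706-128359855 (minus strand, Mcm6) and chr8:75109356-75109467 (plus strand, Mcm5). For Mcm5 the last 41 of the searched bases lie inside the annotated gene and are not printed.
Rrm1: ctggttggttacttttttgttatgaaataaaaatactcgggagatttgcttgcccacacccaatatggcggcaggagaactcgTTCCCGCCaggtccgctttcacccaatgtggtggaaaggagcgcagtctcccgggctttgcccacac
Mcm6: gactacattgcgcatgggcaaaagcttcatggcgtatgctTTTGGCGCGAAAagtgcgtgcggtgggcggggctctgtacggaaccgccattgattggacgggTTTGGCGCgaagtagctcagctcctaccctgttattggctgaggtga
Mcm5: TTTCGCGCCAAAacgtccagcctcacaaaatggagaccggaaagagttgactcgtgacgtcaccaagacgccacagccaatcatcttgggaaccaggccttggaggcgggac

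To ask where in the infarcted hearts these genes were expressed, spots were sorted by the share of 12 cardiomyocyte genes in their non-mitochondrial UMIs, relative to the 90th percentile of that share in the same section. A class was made of the spots under 0.25 of it (lowest), from there to 0.5 (second-lowest), to 0.75 (second-highest) and above (highest). The lowest class, tissue with little cardiomyocyte RNA, held 516 spots at 3 dpi and 952 spots in 5 dpi-F and 591 spots in 5 dpi-M. The highest class, tissue dominated by muscle, held 497, 286 and 509 spots. In the control 1099 of 1146 spots fell into the highest class and 0 into the lowest.

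The summed levels of the S-phase and of the mitotic genes were highest in the spots with the least cardiomyocyte RNA. The S-phase genes had 912 CPM in the lowest and 235 CPM in the highest class at 3 dpi, 663 against 334 CPM in 5 dpi-F and 603 against 370 CPM in 5 dpi-M. The mitotic genes had 1346 against 319 CPM at 3 dpi, 987 against 466 CPM in 5 dpi-F and 930 against 545 CPM in 5 dpi-M. Levels in the lowest class were thus above those in the highest class in 3 of 3 sections, and the gap was widest at 3 dpi. On the log2 CPM scale the gap was 1.96, 0.99 and 0.71 for S-phase genes, a mean of 1.22 ± 0.66 (SD, n = 3), and 2.08, 1.08 and 0.77 for mitotic genes, a mean of 1.31 ± 0.68 (SD, n = 3).

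In between, the shape depended on how the classes were made. At 3 dpi both groups were lower in each class than in the one before, with mitotic levels of 1346, 894, 642 and 319 CPM from the lowest to the highest class. At 5 dpi the mitotic levels were 987, 481, 567 and 466 CPM in 5 dpi-F. They were 930, 547, 749 and 545 CPM in 5 dpi-M. With these class limits the mitotic level of the second-lowest class was close to that of the highest class at 5 dpi, and that of the second-highest class lay above both. S-phase levels from the lowest to the highest class were 663, 332, 322 and 334 CPM in 5 dpi-F and 603, 354, 450 and 370 CPM in 5 dpi-M, so the second-highest class stood above its neighbours only in 5 dpi-M. With classes of equal spot number the mitotic pattern was lost in 5 dpi-F, where mitotic levels of 1143, 934, 633 and 500 CPM were lower from class to class as at 3 dpi (1370, 977, 626 and 281 CPM). In 5 dpi-M they were 1060, 678, 748 and 457 CPM, with the second-lowest class above the highest. At 3 dpi all 42 members had their highest level in the lowest class. At 5 dpi this held for 14 S-phase and 25 mitotic genes in 5 dpi-F. In 5 dpi-M it held for 11 S-phase and 21 mitotic genes. It held for neither G1 regulator at 5 dpi. The share of all genes with their highest level in the lowest class was not counted, so these counts have no background.

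**Figure D2:**
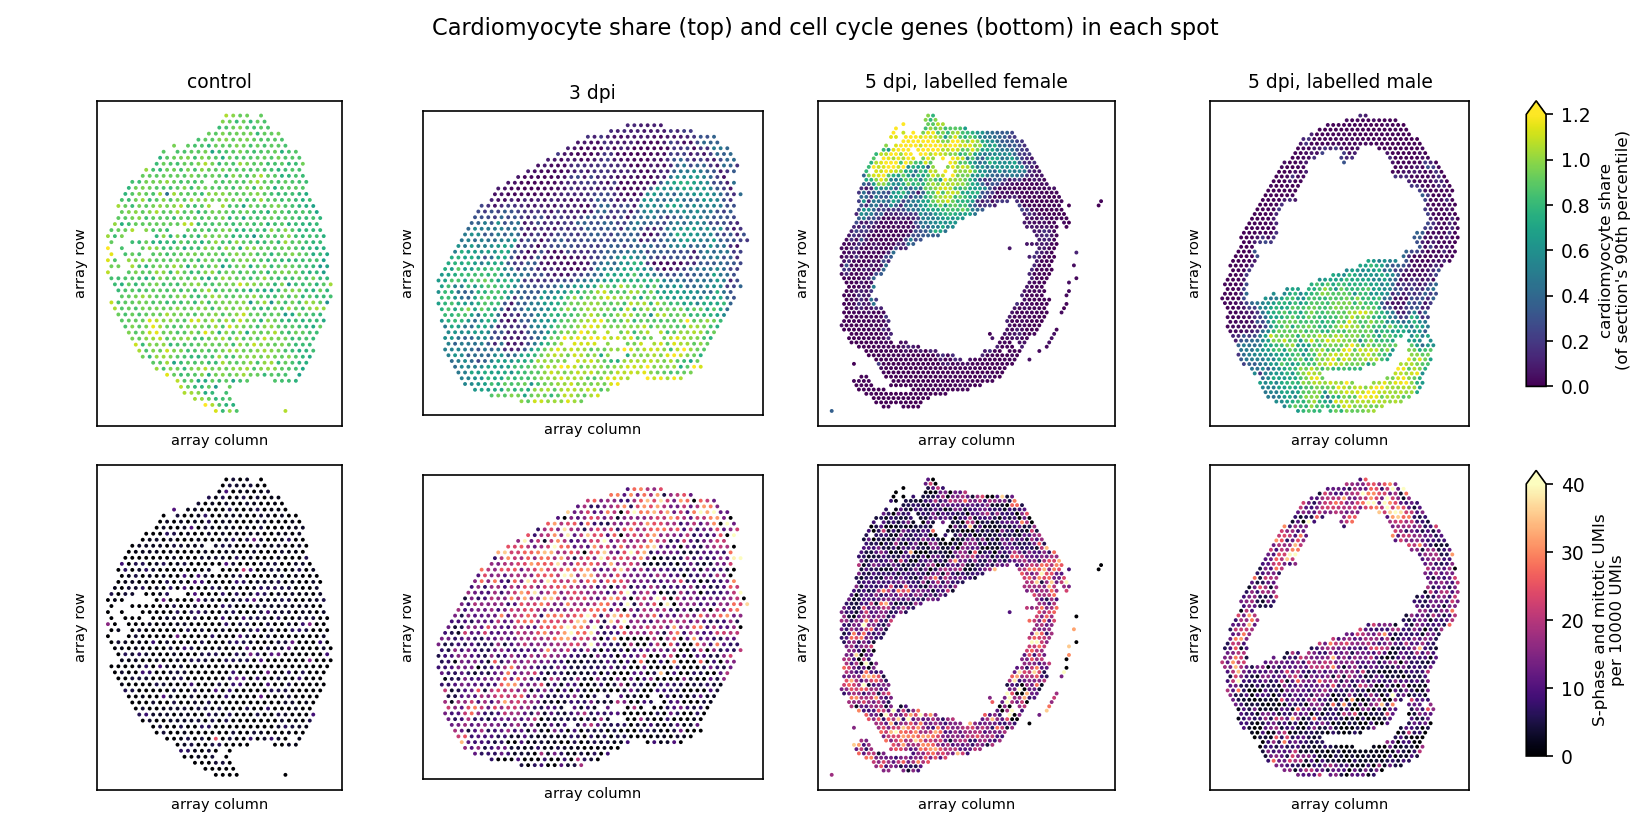
Each spot of the 4 sections at its array position, coloured by its cardiomyocyte share relative to the 90th percentile of its section (top) and by its S-phase and mitotic UMIs per 10000 non-mitochondrial UMIs (bottom). The bright spots of the lower maps lie mostly in the dark, cardiomyocyte-poor tissue of the upper maps, and the control is dark throughout.

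**Figure D3:**
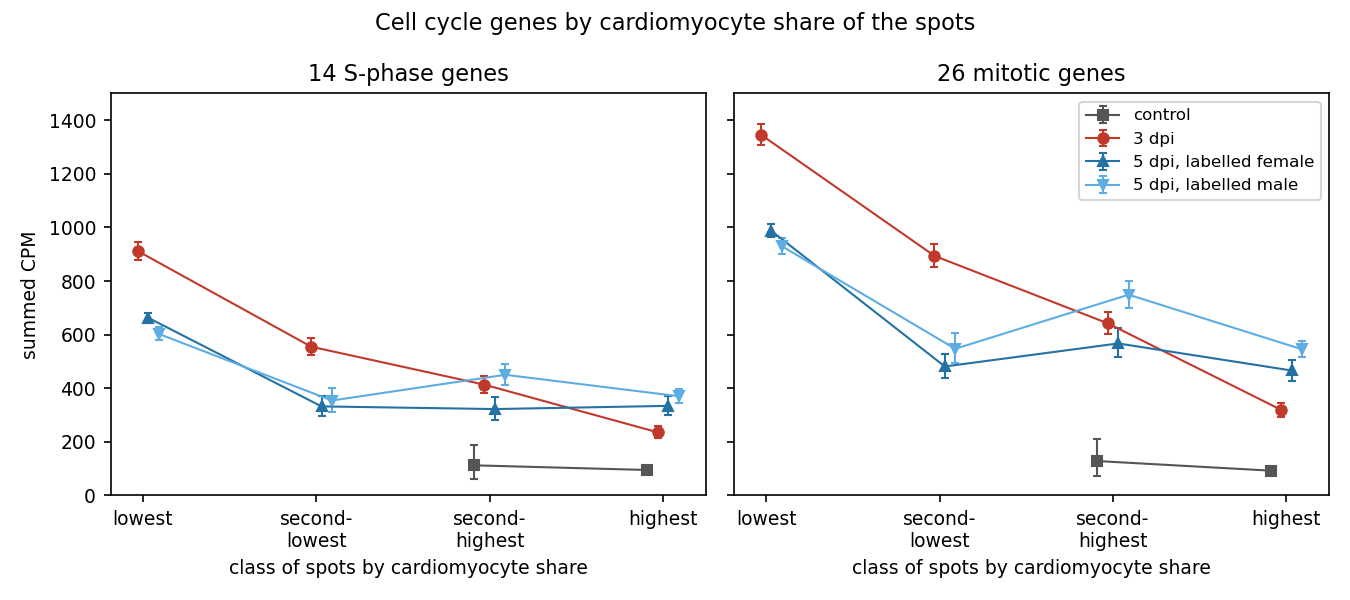
Summed CPM of the 14 S-phase genes (left) and the 26 mitotic genes (right) by class of spots, for each section, with 95% Poisson intervals as bars. The 3 dpi section goes from 1346 down to 319 CPM for mitotic genes, the 5 dpi sections are highest in the lowest class with no steady order among the other classes, and the control has 128 and 92.1 CPM in its 2 classes.

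The members were tested gene by gene on UMIs summed over each class of the 3 infarcted sections, 12 sums in all, with edgeR's quasi-likelihood test and the section as a block. All 42 members passed the filter on low counts, and 32 of them had 10 UMIs or more in the highest class of every section. Between the lowest and the highest class, 32 of the 42 members were called higher at an adjusted p under 0.05, 12 of 14 S-phase genes, 19 of 26 mitotic genes and Cdkn1a. Of all 10815 genes tested, 30.1% were called higher. The median log2 fold change was 0.79 for S-phase genes and 0.92 for mitotic genes, against 0.08 over all genes. The scaling of the test (TMM) lowers log2 fold changes by 0.44 in the median against ratios of CPM, whose median over all genes was 0.52. By CPM alone 39 members were higher in the lowest class in 3 of 3 sections, as were 57.8% of all genes. Scaled by CPM in place of TMM, the test called 5377 of all genes higher and 1880 lower, in place of 3250 and 2931. Without the 3 dpi section the TMM-scaled test called 17 members higher, 5 S-phase and 12 mitotic genes, where 25.9% of all genes were called higher. Without 5 dpi-F it called 7 S-phase genes, where 23.2% of all genes were called higher.

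The widest difference among mitotic genes was that of Cenpe, a motor protein of kinetochores, with 27 CPM in the lowest and 2.84 CPM in the highest class at 3 dpi, 18.9 against 5.25 CPM in 5 dpi-F and 17.8 against 5.69 CPM in 5 dpi-M. Its log2 fold change was 1.72 (SE 0.30, adjusted p = 4.71e-05). Hmmr, a spindle and hyaluronan-binding protein, followed with 1.53 (SE 0.33, adjusted p = 0.000563), from levels of 19.6 against 1.7 CPM, 17.5 against 3.5 CPM and 13.8 against 6.56 CPM. Ccnb1, cyclin B1, the partner of Cdk1, had a log2 fold change of 1.49 (SE 0.22, adjusted p = 5.12e-06). Its levels were 47.9, 30 and 32.8 CPM in the lowest class and 10.2, 11.4 and 7.87 CPM in the highest. The order of these genes changed when a section was left out. Hmmr, with 3 UMIs in the highest class at 3 dpi, had 1.04 without the 3 dpi section and 2.50 without 5 dpi-M. Cenpe had 1.28 and 2.18 and Ccnb1 1.34 and 1.45 in the same cases, and all 3 kept their call.

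Other mitotic genes called higher fell into several roles. Of the kinases, Cdk1 (log2 fold change 1.10), Plk1 (1.11), Aurka (1.09), Aurkb (0.79) and the checkpoint kinase Bub1 (1.29) were called, while Ttk (0.85, adjusted p = 0.117) was not. Of the cyclins and the machinery that destroys them, Ccna2 (1.03), Ccnb2 (0.77), Cdc20 (0.98) and Ube2c (0.85) were called. Among proteins of the spindle and the cleavage furrow, Birc5 (1.35), Kif20a (1.12), Racgap1 (1.01), Tpx2 (1.0) and Kif23 (0.73) were called. Kif11 (0.73, adjusted p = 0.0862), Prc1 (0.45, adjusted p = 0.171) and Nusap1 (0.32, adjusted p = 0.443) of the same machinery were not. Mki67 (0.84) and Top2a (0.69) were called, and the checkpoint protein Bub1b (0.57, adjusted p = 0.0828) was not. Several of these calls were lost when a section was left out. Without the 3 dpi section they were those of Mki67 (0.39, adjusted p = 0.0845), Top2a (0.32, adjusted p = 0.15), Aurkb, Bub1, Ccnb2, Kif23 and Tpx2, and without 5 dpi-F those of Mki67 (0.90, adjusted p = 0.0553), Aurkb, Bub1, Ccnb2 and Kif23. DESeq2 did not call Top2a (adjusted p = 0.054), Aurkb, Bub1 or Kif23, and the calls of Aurkb and Kif23 were lost without the section block.

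Both centromere and kinetochore genes with high control levels showed no difference that the TMM-scaled test could separate from 0. Cenpa had a log2 fold change of 0.02 (SE 0.18, adjusted p = 0.932), with 105 against 51.1 CPM at 3 dpi, 86.3 against 62.2 CPM in 5 dpi-F and 86.2 against 89.7 CPM in 5 dpi-M. Scaled by CPM in place of TMM, Cenpa was called higher (0.47, adjusted p = 0.0345). Cenpf likewise had 0.02 (SE 0.27, adjusted p = 0.948). Leaving out the 3 dpi section gave -0.23 for each of these genes.

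Among S-phase genes the widest difference was that of Cdt1, which loads the replicative helicase, with 40.7 against 6.82 CPM at 3 dpi, 25.5 against 7.88 CPM in 5 dpi-F and 22.8 against 10.5 CPM in 5 dpi-M. Its log2 fold change was 1.31 (SE 0.27, adjusted p = 0.000274). Uhrf1, which carries DNA methylation over to new strands, had 1.05 (SE 0.26, adjusted p = 0.00184). Nucleotide synthesis genes were called throughout, with log2 fold changes of 1.03 for Rrm2, 0.89 for Tyms and 0.78 for Rrm1. So were the 6 helicase subunits, from 0.86 for Mcm4 and Mcm5 through 0.80 for Mcm2 and 0.77 for Mcm6 to 0.56 for Mcm3 and Mcm7, and Pcna at 0.54. Most of these S-phase calls were lost in some alternatives. Without the 3 dpi section those of Pcna (0.14, adjusted p = 0.512), Mcm3 (0.16, adjusted p = 0.597), Mcm2, Mcm4, Mcm6, Mcm7 and Uhrf1 were lost, and without 5 dpi-F those of Pcna (0.55), Mcm2 (0.69), Mcm3 (0.72), Mcm5 (0.79) and Mcm7 (0.52), with log2 fold changes near those over 3 sections. DESeq2 did not call Pcna (adjusted p = 0.123), Mcm3 (0.194) or Mcm7 (0.0792). The calls of Pcna (0.0957) and Mcm3 (0.0916) were lost without the section block, and that of Mcm3 (0.0589) with classes of equal spot number. Gins2, a helicase cofactor, had 0.57 (adjusted p = 0.0507). Cdc6, the partner of Cdt1 in helicase loading, had the lowest value, 0.20 (SE 0.38, adjusted p = 0.689), with few UMIs and levels of 9.33 against 2.27, 7.04 against 5.25 and 6.89 against 7 CPM.

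**Figure D4:**
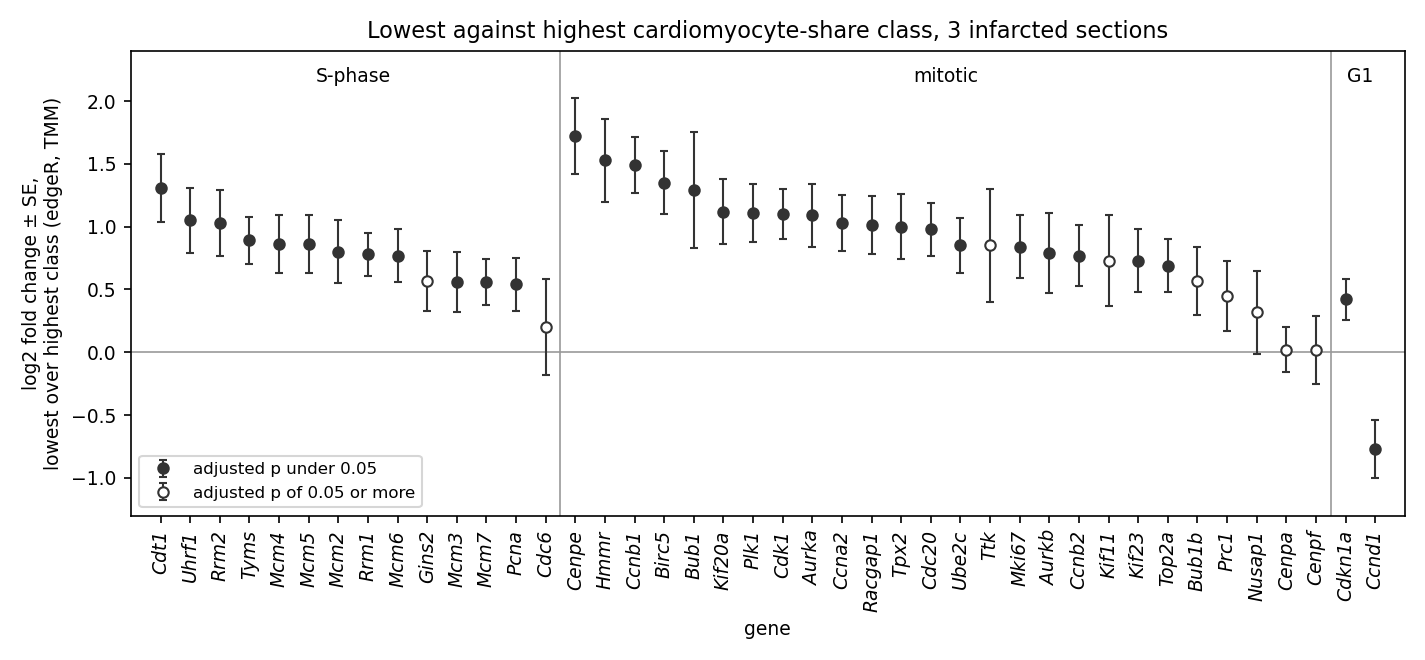
Log2 fold change of each cell cycle gene between the lowest and the highest cardiomyocyte-share class, with its standard error as a bar, from the edgeR test over the 3 infarcted sections. Filled points have an adjusted p under 0.05, and Ccnd1 is the gene below 0 at -0.77.

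The 2 G1 regulators went in opposite directions. Cdkn1a had 63.4 CPM in the lowest and 33 CPM in the highest class at 3 dpi, 58.3 against 42.9 CPM in 5 dpi-F and 50.8 against 21.9 CPM in 5 dpi-M. Its log2 fold change was 0.42 (SE 0.16, adjusted p = 0.0334), a call that did not hold with DESeq2 (adjusted p = 0.156) or without the 3 dpi section (0.0873) or without 5 dpi-M (0.228). Nor did it hold with classes of equal spot number (0.147) or without the section block (0.0676). Ccnd1 was the only member called lower, at -0.77 (SE 0.23, adjusted p = 0.0084), while 27.1% of all genes were called lower. It had 139 CPM in the lowest and 75 CPM in the highest class at 3 dpi, but 53.6 against 123 CPM in 5 dpi-F and 46.3 against 77.4 CPM in 5 dpi-M. The direction at 3 dpi was thus opposite to that at 5 dpi. The call was lost on the CPM scale (-0.33, adjusted p = 0.25), with classes of equal spot number (-0.64, adjusted p = 0.113), without the section block (-0.66, adjusted p = 0.0947), without 5 dpi-F (-0.41, adjusted p = 0.278) and without 5 dpi-M (-0.56, adjusted p = 0.16). The value was -1.39 (adjusted p = 3.48e-08) without the 3 dpi section.

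The difference between the lowest and the highest class was then compared between 5 dpi and 3 dpi with an interaction term. The signed value, 5 dpi minus 3 dpi, was below 0 in all 42 members and in 5733 of the 10815 genes tested, with a median log2 difference of -1.04 over S-phase and of -1.15 over mitotic genes, against -0.04 over all genes. The test called 5 members lower and 0 higher, where 1.01% of all genes were called lower. The 12 cardiomyocyte genes that define the classes had a median of -1.24, and 8 of them were called lower. Their gap between the classes was wider at 5 dpi, with 3594 against 84743 CPM in 5 dpi-F and 5001 against 85899 CPM in 5 dpi-M, than at 3 dpi with 10766 against 98373 CPM. The median was 0.61 for macrophage, 0.75 for fibroblast, 0.51 for mural and 0.53 for erythroid markers. It was -0.77 for neutrophil, -0.47 for endothelial, -0.63 for lymphocyte and -2.06 for mesothelial markers. Of these 8 lists 0 genes were called. The part of these cells in the difference was not tested. There is 1 heart at 3 dpi, which the test assumes to vary like the 5 dpi hearts, so the p-values hold no spread between 3 dpi hearts, and the time point and that heart cannot be told apart. The 5 genes were Mki67 (-1.57, SE 0.35, adjusted p = 0.0139), Mcm6 (-1.43, SE 0.35, adjusted p = 0.0268), Pcna (-1.24, SE 0.31, adjusted p = 0.0322), Uhrf1 (-1.89, SE 0.46, adjusted p = 0.0254) and Ccnd1 (-1.79, SE 0.28, adjusted p = 0.000307).

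For the 4 genes of DNA synthesis and mitosis among them, both ends of the range differed between the times. Mki67 had 125 CPM in the lowest class at 3 dpi and 91.1 and 84.1 CPM at 5 dpi, and 22.7 CPM in the highest class at 3 dpi and 47.3 and 51.2 CPM at 5 dpi. Mcm6 had 96.4 CPM against 71.8 and 64.9 CPM in the lowest class, and 19.9 against 36.8 and 41.6 CPM in the highest. Pcna had 182 against 123 and 111 CPM in the lowest class, and 49.4 against 72.7 and 85.3 CPM in the highest. Uhrf1 had 54.4 against 32.4 and 30.2 CPM and 7.39 against 16.6 and 16.2 CPM. In each of them the levels of cardiomyocyte-poor tissue were higher, and those of muscle-dominated tissue lower, at 3 dpi than in both 5 dpi sections.

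Between the second-lowest and the highest class, 4 members were called higher and 0 lower, where 14% of all genes were called higher. They were Ccnb1 (log2 fold change 0.73, adjusted p = 0.0486), Cdc20, the activator of the anaphase-promoting complex (0.87, adjusted p = 0.0113), Tyms (0.68, adjusted p = 0.0232) and Cdkn1a (0.58, adjusted p = 0.0231). Without the 3 dpi section 1 member was called higher and 4 were called lower, namely Mki67, Prc1, Pcna and Ccnd1, where 10.5% of all genes were called higher and 12.2% lower. Without 5 dpi-F 2 members were called higher against 9.13% of all genes, and without 5 dpi-M 10 members were against 9.78%. With classes of equal spot number 16 members were called higher against 19.2% of all genes. Whether members were called more or less often than all genes here thus changed with the setting.

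Spots of the highest class in the infarcted hearts also differed from those of the control. The limit of the class follows the 90th percentile of each section, which was 11.4% in the control and 10.5%, 8.19% and 9.28% at 3 dpi, in 5 dpi-F and in 5 dpi-M. Cardiomyocyte genes had 102049 CPM in the highest class of the control and 98373, 84743 and 85899 CPM in that of the infarcted sections. The classes compared here thus did not hold equal shares of muscle RNA. The highest class had 92.1 CPM of mitotic genes in the control and 319, 466 and 545 CPM at 3 dpi, in 5 dpi-F and in 5 dpi-M. For S-phase genes it had 94.6 CPM in the control and 235, 334 and 370 CPM. At least 2-fold above the control in the nearest section were 13 of 14 S-phase genes, 23 of the 25 mitotic genes tested and neither G1 regulator, and 5.24% of 10466 genes. Of the genes tested, 10 S-phase and 22 mitotic genes lay under 5 CPM in the highest class of the control and passed only through infarcted sections, as did 1503 of all genes, so these counts are a description and their folds rest on few molecules. Markers of some other cells were higher in these spots too, with fibroblast markers at 1047 CPM in the control and 2795 to 4938 CPM in the infarcted sections and macrophage markers at 768 against 1244 to 1717 CPM. Neutrophil markers were at 16.6 against 24.5 to 81.4 CPM and erythroid markers at 7640 against 6207 to 27406 CPM. Endothelial markers were at 670 against 631 to 810 CPM and mural markers at 541 against 340 to 530 CPM. Lymphocyte markers were at 4.98 against 3.06 to 6.13 CPM and mesothelial markers at 9.41 against 1.14 to 14 CPM. The part of these cells in the result was not tested.

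Markers of several cell types also differed along the main contrast. All 8 macrophage markers were called higher in the lowest class, with sums of 7927 to 10923 CPM against 1244 to 1717 CPM in the highest. Of 7 fibroblast markers, 5 were called higher and 1 lower, with sums of 13841 to 24913 against 2795 to 4938 CPM. The 3 of 5 neutrophil markers and the 2 of 7 lymphocyte markers that could be tested were called higher, with sums of 247 to 350 against 24.5 to 81.4 CPM and of 18 to 24.2 against 3.06 to 6.13 CPM. Cxcr2 of the neutrophil list and Ms4a1 of the lymphocyte list had 0 UMIs in the highest class of all 3 sections. Endothelial markers did not share this, with 0 of 6 called higher and 4 called lower by the TMM-scaled test, but their sums were 733 CPM in the lowest against 631 CPM in the highest class at 3 dpi, 537 against 810 CPM in 5 dpi-F and 658 against 666 CPM in 5 dpi-M. Of the mesothelial markers 2 of 4 were called higher and 0 lower. Of the mural markers 2 of 5 were called higher and 3 lower, and all 4 erythroid markers were called lower. The part of each cell type in the cell cycle result was not tested.

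Within cardiomyocyte-poor tissue, made of the lowest and the second-lowest class, the levels were followed by the distance in spot steps from the nearest muscle spot. At 3 dpi mitotic genes had 991 CPM at 1 to 2 steps, 1364 CPM at 3 to 4 steps and 1275 CPM beyond. At 5 dpi they had 444, 681 and 1049 CPM in 5 dpi-F. They had 478, 538 and 966 CPM in 5 dpi-M. Levels in both 5 dpi sections were thus higher at each further distance, and the 3 dpi section was highest in the middle. S-phase genes had 605, 950 and 872 CPM at 3 dpi, 336, 415 and 703 CPM in 5 dpi-F and 330, 422 and 617 CPM in 5 dpi-M. All 14 S-phase genes and 20 of 26 mitotic genes were higher beyond 4 steps than at 1 to 2 steps in 3 of 3 sections, against 37.4% of all genes. The G1 regulators did not share this. Ccnd1 had 98.4 CPM at 1 to 2 steps and 144 CPM beyond 4 at 3 dpi, and 70.8 against 52.9 and 66.7 against 46.2 CPM at 5 dpi. Macrophage markers had 4945 CPM at 1 to 2 steps and 7750 CPM beyond 4 at 3 dpi, 5970 against 10570 CPM in 5 dpi-F and 4431 against 10414 CPM in 5 dpi-M. Neutrophil markers had 99.4 against 469, 79.1 against 299 and 72 against 258 CPM. Cardiomyocyte genes went the other way, with 32196 against 12462, 24448 against 3387 and 30477 against 5412 CPM. Fibroblast markers had 13667 against 11017 CPM at 3 dpi, 22203 against 24427 CPM in 5 dpi-F and 20094 against 21824 CPM in 5 dpi-M. Endothelial markers had 616 against 800, 685 against 519 and 632 against 650 CPM. The part of these cells in the distance pattern was not tested.

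**Figure D5:**
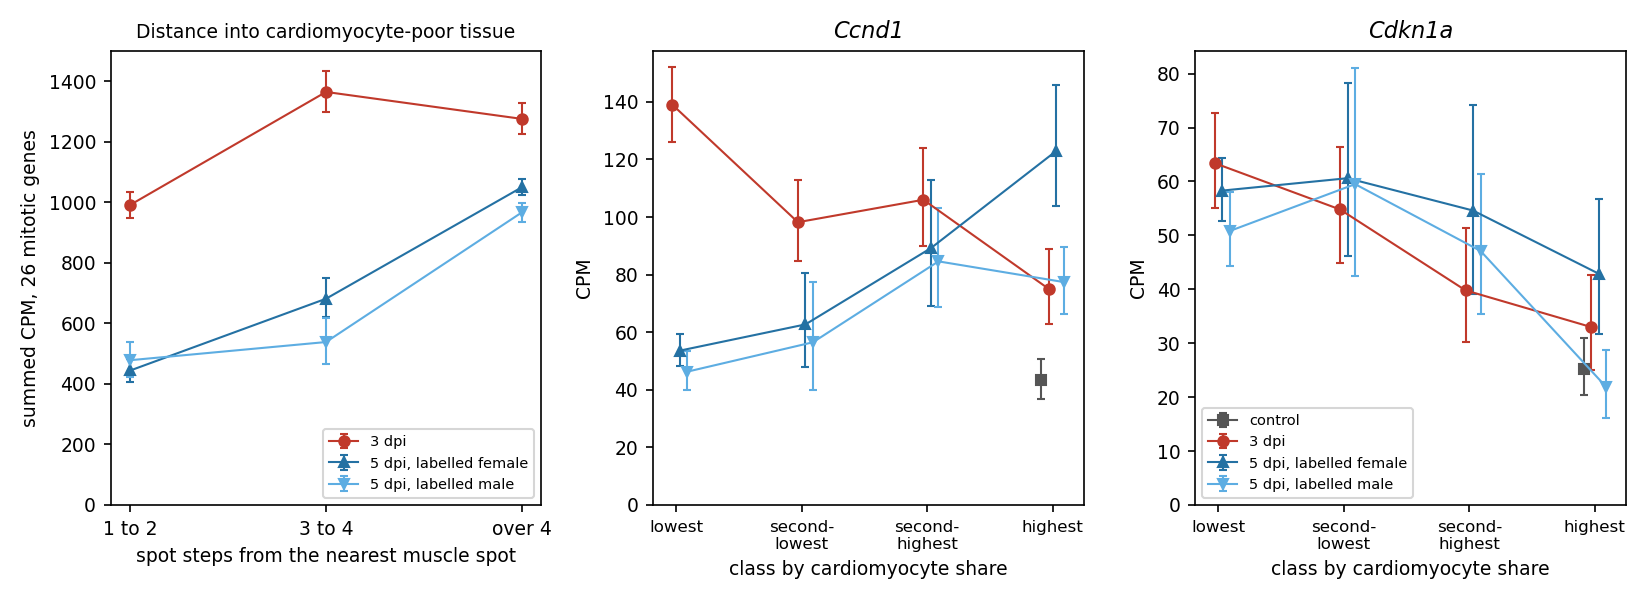
Left, summed CPM of the 26 mitotic genes in cardiomyocyte-poor tissue by steps from the nearest muscle spot. Middle and right, CPM of Ccnd1 and Cdkn1a by class of spots, with 95% Poisson intervals as bars. Ccnd1 has 139 CPM in the lowest and 75 CPM in the highest class at 3 dpi and is higher in the highest than in the lowest class at 5 dpi.

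The same cardiomyocyte-poor spots were split at the median of a marker list in each section, to see whether cell cycle genes went with macrophage, fibroblast or endothelial RNA. The differences were small next to those between classes. Mitotic genes were higher in spots rich in macrophage markers by 0.21, 0.19 and 0.06 on the log2 scale at 3 dpi, in 5 dpi-F and in 5 dpi-M, a mean of 0.15 ± 0.08 (SD, n = 3). S-phase genes were higher there by 0.34, 0.23 and 0.04, a mean of 0.20 ± 0.15. With the limit of cardiomyocyte-poor tissue at 0.4 in place of 0.5, the direction was turned in 5 dpi-M, at -0.01 for mitotic and -0.06 for S-phase genes. Of the members, 5 of 14 S-phase genes, 11 of 26 mitotic genes and 1 G1 regulator were higher in macrophage-rich spots in 3 of 3 sections, against 30.2% of all genes. For fibroblast markers the mitotic difference was 0.12 at 3 dpi and -0.13 and -0.21 at 5 dpi, with a mean of -0.07 ± 0.17, and 1 S-phase and 2 mitotic genes were higher in 3 of 3 sections against 20.9% of all genes. For endothelial markers it was 0.18, 0.02 and -0.05, with a mean of 0.05 ± 0.12, and 4 S-phase and 3 mitotic genes were higher in 3 of 3 sections against 17.2% of all genes. The fibroblast and the endothelial differences were smaller than their spread between sections. A spot holds several cells, so these splits do not assign a gene to a cell type.

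Spots were then counted by whether they held a cell cycle UMI. To compare shares at equal depth, each spot was thinned to 1534 non-mitochondrial UMIs, which left out 115 spots of the control and 226, 93 and 28 spots of the infarcted sections. A mitotic UMI was seen in 82.6% of 489 lowest-class spots at 3 dpi (95% exact binomial interval 79 to 85.9), in 73.3% of 876 spots (70.2 to 76.2) in 5 dpi-F and in 67.7% of 588 spots (63.7 to 71.5) in 5 dpi-M. In the second-lowest class the shares were 76%, 45.8% and 52.9%. In the highest class the shares were 35.4%, 43.3% and 45.8%, and over the whole control 12.8% (10.8 to 15). The order of the sections was therefore turned between the classes, with 3 dpi first in the lowest class and last of the infarcted sections in the highest. At 2 mitotic UMIs or more the shares of lowest-class spots were 58.9%, 43.2% and 38.6%. An S-phase UMI was seen in 73.6%, 62.3% and 55.6% of lowest-class spots, in 57.4%, 34.7% and 42.2% of second-lowest-class spots, in 29.5%, 42.2% and 37.2% of highest-class spots and in 13.5% of control spots. At 2 S-phase UMIs or more the shares of lowest-class spots were 40.9%, 27.6% and 23.6%. Both kinds were seen in the same spot in 62.8%, 47.7% and 38.4% of lowest-class spots and in 1.75% of control spots. Without thinning, 97.1%, 92.9% and 95.4% of lowest-class spots and 23.8% of control spots had a mitotic UMI, at median depths of 6106, 6940 and 7024 against 2976 UMIs.

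Other genes of the same pathways were read from lists of further replication, mitosis, G1 and p53 genes, beside the 30.1% of all genes called higher and the 27.1% called lower. Of 45 other replication genes tested, 29 were called higher in the lowest class and 1 lower. Mcm10 (log2 fold change 1.88), Hells (1.86), a chromatin remodeller, and E2f2 (1.5) were highest, and Gmnn, geminin, the inhibitor of Cdt1, was the gene called lower at -0.83 (SE 0.21, adjusted p = 0.00204). Pola2 (-0.35, adjusted p = 0.235) and Rfc4 (-0.28, adjusted p = 0.366) came next. Of 56 other mitotic genes tested, 36 were called higher and 1 lower. Ccnf (2.13), Cdc25c (1.74), the phosphatase that activates Cdk1, and the condensin subunit gene Ncapg2 (1.73) were highest. Pttg1, securin, which holds separase until anaphase, was called lower at -1.51 (SE 0.16, adjusted p = 4.89e-08) and was lower in 3 of 3 sections by CPM. Sgo2a (-0.12, adjusted p = 0.807) and Ncapd2 (0.29, adjusted p = 0.403) followed.

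Of 19 other G1 and checkpoint regulators tested, 5 were called higher and 3 lower, where 30.1% and 27.1% of all genes were. Whether these small counts differ from the shares of all genes was not tested. The kinase inhibitor gene Cdkn2b (log2 fold change 3.17), Myc (1.49) and E2f3 (1.06) were highest, and E2f6 (-1.62), Rbl2 (-0.77) and Ccnd2 (-0.63) were called lower. Of 11 p53 target genes tested besides Cdkn1a, 7 were called higher and 1 lower. Trp53inp1 (1.63), Sesn2 (1.35) and Zmat3 (1.29) were highest. Ccng1 was called lower at -2.08 (SE 0.12, adjusted p = 9.19e-12), while Aen (-0.32, adjusted p = 0.0565) and Mdm2 (0.02, adjusted p = 0.905) were not called. Median log2 fold changes were 0.74 for the replication list, 0.86 for the mitotic list, 0.21 for the G1 list and 1.06 for the p53 list, against 0.08 over all genes. In the comparison of 5 dpi with 3 dpi, 0 of the replication genes, 5 of the mitotic genes, 0 of the G1 regulators and 0 of the p53 targets were called lower and 0 of any list higher. Of all genes 1.01% were called lower there. The median log2 difference was -0.95, -1.14, -0.29 and 0.01 in that order, against -0.04 over all genes.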

How the data were processed

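Visium libraries of 4 mouse heart sections were used. The deposited files hold UMI counts, not normalized, which the authors made with Space Ranger 1.3.1, per the labels against mm10, while the methods name another Ensembl-based reference with GFP added. No coordinate of the count files was used. Spots carried the authors' tissue flag, and the 623 spots of the 5 dpi section labelled male without it were left out. Of the rest, spots with under 500 UMIs, under 250 genes or over 50% of UMIs from the 13 mitochondrial genes were dropped. CPM excludes those 13 genes from its total.

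UMIs were summed per class and section, and 12 sums were compared in a quasi-likelihood test (edgeR 4.0.16, R 4.3.3) after TMM scaling and the default filter, with the section as a block and Benjamini-Hochberg adjustment over all genes. The test was checked on simulated data. The control entered no test. DESeq2 1.42.0, no filter, all flagged spots, other class limits, leaving out genes or a section, and other denominators were tried, and the CPM scaling of the test was added after seeing the data. Members were described in full by role, with levels in every section for the 6 S-phase and the 6 mitotic genes of highest mean CPM, the G1 regulators and the genes of highest and lowest fold change in a group. Of the other lists the 3 highest and the 3 lowest genes were named. Poisson and Clopper-Pearson intervals are at 95%. Replication, mitosis, G1, p53 and marker lists and the members were chosen with earlier results of these data known. Promoter sequences are those of RefSeq, GRCm38.p6.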

Additional observations from a re-analysis of the deposited data

Results flagged for a closer look

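Mki67, Mcm6, Pcna, Uhrf1 and Ccnd1 differed between the 5 dpi hearts and the 1 heart at 3 dpi in the log2 difference between the lowest and the highest cardiomyocyte-share class, by the interaction term of edgeR's quasi-likelihood test, which assumes that the lone heart varies like the others, with values of -1.57, -1.43, -1.24, -1.89 and -1.79. Ccnd1 was lower in the lowest than in the highest class in both 5 dpi sections and higher there at 3 dpi.

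The 623 spots of 5 dpi-M that lack the tissue flag, which no comparison used, held 2229014 non-mitochondrial UMIs. In them S-phase genes had 574 CPM (95% Poisson interval 543 to 606) and mitotic genes 830 CPM (792 to 868), against 498 and 768 CPM in the spots of this section used here and 95.1 and 93.3 CPM in the control. Erythroid markers were at 65502 CPM and cardiomyocyte markers at 16906 CPM in these spots.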

How the results depend on the processing

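Between the lowest and the highest class, 16 of the 33 called members kept their call under all 10 alternatives, and the called members kept direction and call in 284 of 330 values, with 46 losing the call and 0 reversed. The number called higher was 24 with DESeq2, where 18% of all genes were called higher, and 38 on the CPM scale, where 51% were. It ranged from 17 to 34 when a section was left out, with 17 without the 3 dpi section. In those fits 23.2% to 25.9% of all genes were called higher. Members not called gained a call in 19 of 90 values, Gins2 under 6 alternatives, Bub1b under 4, Prc1 and Ttk under 3 each, Kif11 under 2 and Cenpa under 1, and reversed sign in 8, as follows. Cenpa was -0.02 with all spots under tissue and -0.03 without the section block. With a section left out, log2 fold changes ranged from -0.23 to 0.35 for Cenpa, from -0.23 to 0.39 for Cenpf, from -0.09 to 0.59 for Nusap1 and from -0.28 to 0.81 for Cdc6, with the lowest value without 3 dpi for each, and Cenpa (-0.07) and Cenpf (-0.06) were also below 0 without 5 dpi-F. Between the second-lowest and the highest class the 4 calls became 1 with DESeq2, 10 without the filter, 16 with classes of equal spot number, 2 without the section block and 14 on the CPM scale, where 8.97%, 10.1%, 19.2%, 10.2% and 26.6% of all genes were called higher, and ranged from 1 to 10 when a section was left out. On the CPM scale 5377 of all genes were called higher and 1880 lower in the lowest class, in place of 3250 and 2931. The comparison of 5 dpi with 3 dpi called 8 members without the filter, and had no residual degrees of freedom without a 5 dpi section. The share of all genes called without the filter was not counted, so the 8 members have no background. The log2 difference between infarcted sections and the control was 3.02 for S-phase and 3.64 for mitotic genes when CPM was taken over all UMIs, and 2.96 without Pcna and 3.76 without Cenpa. The endothelial difference of mitotic genes ranged from -0.02 to 0.10 when a section was left out. The mean share of lowest-class spots with an S-phase UMI was 91.4% without thinning and 30.7% at 2 UMIs or more, and that with a mitotic UMI 95.1% and 46.9%. Hearts could not be paired between the groups, since each heart belongs to 1 group, and the section block pairs only the classes of 1 heart. The causes of these changes were not tested, and 1 heart each in the control and at 3 dpi limits all comparisons over time.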
